A study of Mus musculus with 8 samples.

Results

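Fkbp5, Tsc22d3, Sgk1, Zbtb16, Fam107a, Cables1, Ezr, Errfi1 and Nfkbia were followed as classical targets of glucocorticoid signalling, and most of them are known to be induced by glucocorticoids in several tissues. They were taken as a fixed list of 9 genes by symbol, and all 9 were among the 26711 features of the count matrix. In these data they were followed across 20 deposited cell types of the mouse primary visual cortex (V1), in a study that used a virus to delete the glucocorticoid receptor (GR) from astrocytes.

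The study asked what GR in astrocytes does for the maturation of V1 and whether visual experience acts through it. All mice, control animals included, carried loxP-flanked alleles of the GR gene (GRfl/fl) and were collected at postnatal day 21. At birth they received an adeno-associated virus of serotype 2/5 in which the astrocyte promoter GfaABC1D drove either Cre (GR-KO) or the truncated, inactive ΔCre (GR-Con), each joined through T2A to a membrane-directed EGFP, with 4x6T miRNA target sites and WPRE in the transcript. Animals of both genotypes were reared in normal light (NR) or in darkness (DR), which gave 4 groups of 2 libraries, 1 male and 1 female, each from 1 animal. The deletion depends on virus reaching a given astrocyte, and the share of astrocytes transduced was not measured here.

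GR is a nuclear receptor that rests in the cytoplasm in a complex with heat shock proteins and moves to the nucleus when it binds a glucocorticoid such as corticosterone. There it binds DNA as a dimer at palindromic elements and raises the transcription of nearby genes, among them several that limit its own action. Astrocytes are among the most glucocorticoid-responsive cells of the brain. The 9 genes fall into 3 groups by role. Fkbp5, Tsc22d3 and Nfkbia restrain GR or inflammatory signalling: Fkbp5 encodes a co-chaperone that lowers the affinity of GR for its ligand, Tsc22d3 encodes GILZ, and Nfkbia encodes the NF-κB inhibitor IκBα. Sgk1 (a serum- and glucocorticoid-induced kinase), Errfi1 (an inhibitor of the EGF receptor family) and Zbtb16 (the zinc finger repressor PLZF) act in signalling and transcription. Fam107a (the actin-binding protein DRR1), Ezr (ezrin, which ties the membrane to actin and is found in fine astrocyte processes) and Cables1 (an adaptor of cyclin-dependent kinases) act on cell shape and the cell cycle. The paper names Cables1 among loci that GR binds in astrocytes and not in peripheral tissues, apart from canonical targets. It names Ezr and Fam107a as markers of adult astrocytes.

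The DNA upstream of these genes was searched for the letters GR prefers, in RefSeq promoters on GRCm38.p6 (250 bases before each start site), in which 7 of the 9 genes matched with 17 promoters in all. The palindrome searched was AGAACA and TGTTCT with any 3 bases between them, and the single element was TGTTCT on either strand, which every palindrome also holds. The palindrome occurred in 3 of 32851 promoters (0.00913%) and the single element in 16.1%. Some promoters of Sgk1, Fam107a and Tsc22d3 held a match and others of the same genes held none. Those of Errfi1, Nfkbia, Ezr and Fkbp5 held none. For 4 genes 1 promoter is shown, chosen to span what was found: a palindrome, separate single elements, and none. Each is written 5′ to 3′ on the strand of its gene, and capitals mark the searched letters. The Sgk1 promoter shown is chr10:21993640-21993889 (+) with elements starting 242, 189 and 180 bases before the start site, of which the last pair forms the palindrome. The Fam107a promoter is chr14:8309780-8310029 (-), with elements at 158 and 110 bases, the Tsc22d3 promoter is chrX:140600523-140600772 (-), with an element at 185 bases, and the Fkbp5 promoter is chr17:28486150-28486399 (-), in which the letters do not occur.
Sgk1: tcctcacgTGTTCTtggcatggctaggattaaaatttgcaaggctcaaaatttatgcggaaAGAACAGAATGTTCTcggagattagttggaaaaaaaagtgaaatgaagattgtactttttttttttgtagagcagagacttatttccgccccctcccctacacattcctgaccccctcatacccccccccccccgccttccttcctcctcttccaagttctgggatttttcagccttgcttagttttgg
Fam107a: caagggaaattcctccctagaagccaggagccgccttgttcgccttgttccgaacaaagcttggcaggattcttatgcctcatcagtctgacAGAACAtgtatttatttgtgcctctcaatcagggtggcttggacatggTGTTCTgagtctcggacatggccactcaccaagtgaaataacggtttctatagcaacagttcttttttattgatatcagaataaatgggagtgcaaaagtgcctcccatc
Tsc22d3: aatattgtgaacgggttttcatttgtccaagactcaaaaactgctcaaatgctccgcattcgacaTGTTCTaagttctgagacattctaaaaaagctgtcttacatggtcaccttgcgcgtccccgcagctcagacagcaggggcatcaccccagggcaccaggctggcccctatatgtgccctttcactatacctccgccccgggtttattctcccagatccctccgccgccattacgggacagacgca
Fkbp5: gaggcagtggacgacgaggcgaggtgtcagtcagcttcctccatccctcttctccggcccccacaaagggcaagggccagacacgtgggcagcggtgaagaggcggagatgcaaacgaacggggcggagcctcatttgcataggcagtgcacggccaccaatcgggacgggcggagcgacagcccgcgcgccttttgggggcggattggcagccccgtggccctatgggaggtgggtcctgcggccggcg
A match is a description of the letters in this window and not a binding site, and other sites in or around these genes were not searched. Zbtb16 and Cables1 are named only.

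The count matrix held UMIs (counted molecules) of 102330 nuclei, of which 9486 were astrocytes. All 9 members are protein-coding genes, on GRCm38 with GENCODE vM21 at Fkbp5 chr17:28399094-28517527 (-), Tsc22d3 chrX:140539528-140600659 (-), Nfkbia chr12:55489410-55492647 (-), Sgk1 chr10:21882184-21999903 (+), Errfi1 chr4:150853919-150868892 (+), Zbtb16 chr9:48654297-48836222 (-), Fam107a chr14:8296274-8318023 (-), Ezr chr17:6738041-6782784 (-) and Cables1 chr18:11839220-11945630 (+). None overlaps another feature of the matrix on its own strand. Levels are given as CPM, the UMIs of a gene per 1000000 UMIs summed over the nuclei of 1 cell type in 1 library. Astrocyte sums held 5462791 to 11585703 UMIs from 924 to 1794 nuclei, with medians of 4889 to 12123.5 UMIs per astrocyte nucleus, and the deepest astrocytes were those of NR GR-KO. Sgk1, with the fewest UMIs summed over the libraries, had 39 to 135 astrocyte UMIs per library, Fkbp5 had 54 to 939 and Fam107a had 735 to 2667. There were 3 libraries with only 2 to 4 microglia (NR GR-Con male, NR GR-KO male and DR GR-Con female) against 573 to 948 in the other 5, so genotype and rearing comparisons over all 8 libraries are given with and without them. Cell types carry the deposited names, excitatory neurons by layer (L2/3 to L6b, with IT, NP, PT and CT for intratelencephalic, near-projecting, pyramidal tract and corticothalamic) and interneurons by marker gene (Pvalb, Sst, Vip, Lamp5) or as chandelier cells (ChC). Barcode sequences recurred between libraries in 2452 nuclei (2.396%). The targeted gene, Nr3c1, stood at 231 and 221 CPM (male and female) in NR GR-Con astrocytes, 284 and 268 in NR GR-KO, 263 and 207 in DR GR-Con and 274 and 275 in DR GR-KO, and the difference in NR was not called (log2 fold change 0.22, SE 0.14, adjusted p = 0.510, edgeR). Reads of this kit come from the 3′ end of transcripts. Whether they cover the part that Cre removes was not tested, so that Nr3c1 UMIs do not check the deletion.

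The members differed in where they were expressed. Fam107a and Ezr were highest in astrocytes, at 234 ± 90.0 and 111 ± 33.7 CPM (SD, n = 8), and in every library where the next cell type could be measured the astrocytes were above it (7 of 7 libraries, Fam107a against endothelial cells and Ezr against VLMC, the vascular leptomeningeal cells). Both stood at a mean of 0 to 7.4 CPM in every neuron type. The mean level of Cables1 was highest in microglia (376 ± 48.7 CPM, n = 5) and next in astrocytes (226 ± 92.9), an order that held in 4 of 5 libraries. Nfkbia was highest in endothelial cells (152 ± 34.8 CPM, n = 7) and next in astrocytes (26.4 ± 9.15), and Tsc22d3 was highest in oligodendrocytes (195 ± 53.7 CPM, n = 8), ahead of endothelial cells (73.0 ± 20.4), microglia (57.4 ± 20.6, n = 5) and astrocytes (48.4 ± 25.2).

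The remaining members were not astrocyte-enriched. Fkbp5 was highest in microglia (446 ± 244 CPM, n = 5) and VLMC (341 ± 151, n = 7), with astrocytes in rank 12 of 20 at 40.3 ± 42.1. These means cover both genotypes: in the GR-Con libraries alone VLMC were highest and astrocytes were in rank 7 at 67.6 CPM, and the rank of astrocytes went from 4 to 2 for Tsc22d3 and from 18 to 12 for Zbtb16. Errfi1 was highest in VLMC (150 ± 41.2 CPM). Zbtb16 was highest in the Lamp5 (640.2 ± 150) and Vip (638 ± 101) interneurons, a pair in which Lamp5 was above Vip in 5 of 8 libraries. Sgk1 was highest in oligodendrocyte progenitors (OPC, 229 ± 40.0) and Vip interneurons (226 ± 20.3), and astrocytes had its lowest mean of all 20 types (9.31 ± 2.29), below the next type in 8 of 8 libraries. Of 171 pairs of neighbours in these orders, 26 had p under 0.05 in the exact permutation test over libraries (sign flips, two-sided) and 0 had an adjusted p under 0.05, the smallest being 0.157, because 8 libraries cannot give a p under 0.0078. Neighbours in the orders therefore could not be separated after adjustment. The orders were set from the same levels that were tested, so the unadjusted p-values are no independent check of them.

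**Figure D1:**
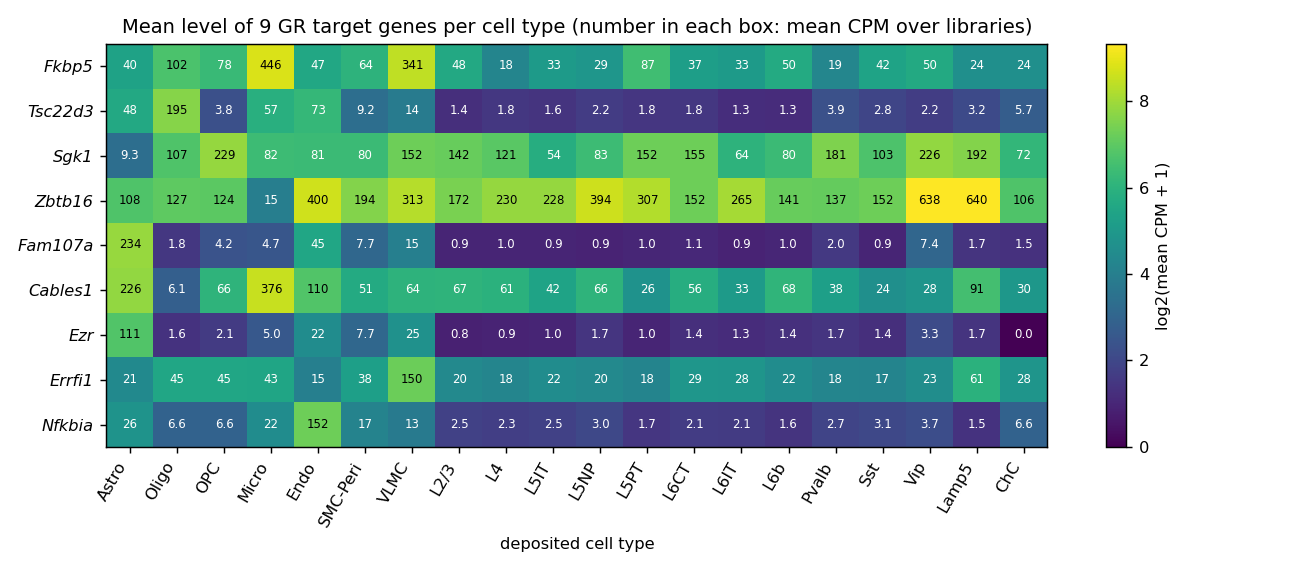
Mean CPM of the 9 genes (rows) in the 20 deposited cell types (columns), with colour showing log2(mean CPM + 1) and the mean over 3 to 8 libraries printed in each box. Fam107a and Ezr peak in astrocytes (234 and 111 CPM), whereas Sgk1 has its lowest mean there (9.31 CPM).

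Nearly the whole list was lower in GR-KO astrocytes of normally reared animals. Of the 9 members 8 were called lower in NR GR-KO than in NR GR-Con astrocytes and 0 higher, where 7.11% of the 14493 genes tested were called, 3.37% lower and 3.73% higher (edgeR likelihood ratio test, adjusted p under 0.05 over all genes tested). The median log2 fold change of the members was -1.04, beside 0.0013 for all genes. The members were chosen with earlier results of these data known, so their count is not an independent test. In all 8 of these genes both GR-KO libraries were below both GR-Con libraries, as were those of 16.1% of all genes.

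Among the restraining genes, Fkbp5 fell most. It stood at 129 and 47.6 CPM (male and female) in NR GR-Con and at 21.9 and 4.92 in NR GR-KO. The levels of a group differed more than 2-fold between its libraries, and still did not overlap between groups (log2 fold change -2.79, SE 0.62, adjusted p = 2.87e-04). Tsc22d3 stood at 90.1 and 65.4 CPM in GR-Con and at 42.1 and 25.8 in GR-KO, lower in both sexes and without overlap (-1.27, SE 0.24, adjusted p = 5.88e-06). Nfkbia went from 37.8 and 35.5 to 26.4 and 17.2 CPM (-0.83, SE 0.21, adjusted p = 0.00282).

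Among the signalling and transcription genes, Zbtb16 stood at 227 and 106 CPM in NR GR-Con and 61.4 and 37.6 in NR GR-KO, a log2 fold change of -1.82 (SE 0.34, adjusted p = 8.36e-06). Errfi1 changed least of the called members, from 27.4 and 25.2 to 19.8 and 16.1 CPM (-0.63, SE 0.18, adjusted p = 0.00986). Sgk1 was at 10.1 and 9.71 CPM in GR-Con and at 10.6 and 11.7 in GR-KO, slightly higher in both GR-KO libraries and not called (0.11, SE 0.20, adjusted p = 0.923). Its level rested on 65 to 135 UMIs in the 4 NR libraries, and that of Fkbp5 on 57 in NR GR-KO female.

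The 3 genes of cell shape and cycle all fell. Fam107a stood at 365 and 355 CPM in NR GR-Con and at 150.4 and 168 in NR GR-KO, so that libraries of a group lay close together and far from the other group (-1.24, SE 0.15, adjusted p = 2.79e-13). Ezr went from 169 and 158 to 88.8 and 88.5 CPM (-0.95, SE 0.14, adjusted p = 7.19e-10), and Cables1 from 308 and 234 to 176 and 100.1 CPM (-1.04, SE 0.26, adjusted p = 0.00161).

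The quasi-likelihood test of edgeR also called 8 members, and DESeq2 called 5, without Fkbp5 (adjusted p = 0.16), Cables1 (0.18) and Errfi1 (0.12). With 1 library left out the number called was 5 to 8: Cables1, Errfi1 and Nfkbia were not called without NR GR-Con male, Errfi1 and Nfkbia not without NR GR-KO female, and Errfi1 not without NR GR-Con female.

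**Figure D2:**
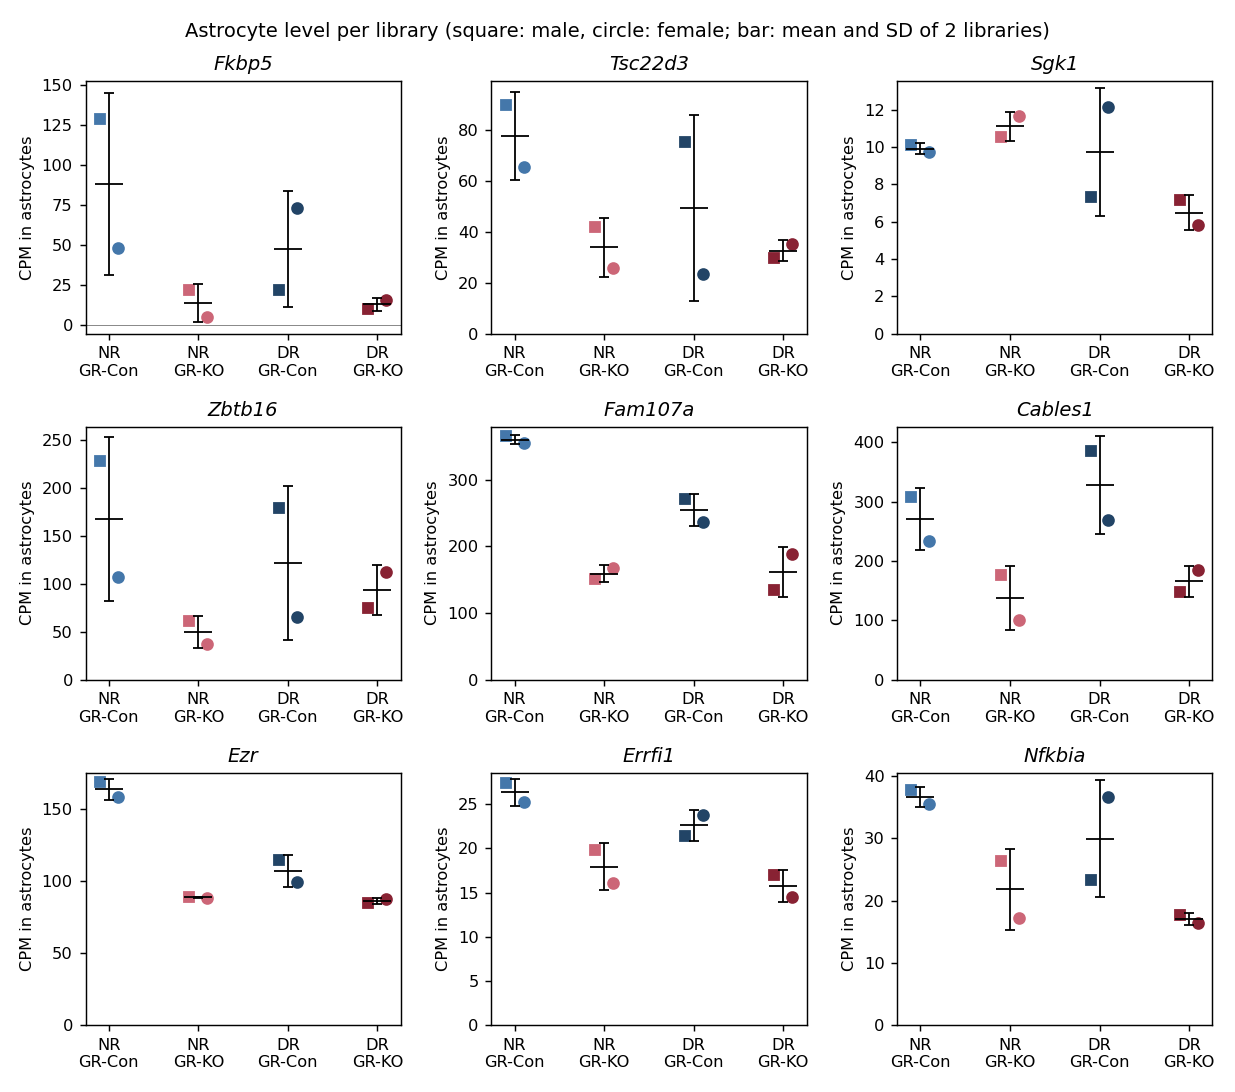
CPM in astrocytes (y axis, linear, 1 panel per gene) in the 4 groups, with squares for male and circles for female libraries and bars for the mean and SD of 2 libraries. In NR, GR-KO lies below GR-Con in 8 panels, and in DR the GR-Con libraries of Fkbp5, Tsc22d3 and Zbtb16 lie far apart.

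In dark-reared animals the genotype difference pointed the same way but was mostly not called. All 9 members had a log2 fold change below 0 in DR GR-KO against DR GR-Con astrocytes (median -0.59, beside -0.0104 for all genes), and 1 was called, where 0.736% of 14139 genes were. That gene was Cables1, at 386 (male) and 269 CPM (female) in DR GR-Con and 147 and 184 in DR GR-KO (-0.96, SE 0.27, adjusted p = 0.0469). Groups did not overlap in 7 members, all lower in GR-KO, as in 19.6% of genes.

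Fkbp5 stood at 21.5 and 72.8 CPM in DR GR-Con and 9.89 and 15.4 in DR GR-KO (-1.85, SE 0.56, adjusted p = 0.0999). Fam107a stood at 271 and 237 CPM against 135 and 188 (-0.63, adjusted p = 0.378), Nfkbia at 23.3 and 36.6 against 17.8 and 16.4 (-0.78, adjusted p = 0.334), and Ezr at 115 and 99.1 against 84.8 and 87.5 (-0.29, adjusted p = 1.00). Tsc22d3 and Zbtb16 were the genes whose groups overlapped: their DR GR-Con libraries were at 75.3 and 23.6 CPM for Tsc22d3 and at 179 and 64.8 for Zbtb16, on either side of the GR-KO libraries (29.7 and 35.5, 75.1 and 112).

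The DR result depended on which control library was used. Without DR GR-Con male, 8 members were called and Tsc22d3 and Zbtb16 turned to higher in GR-KO (log2 fold changes 0.52 and 0.59), and without DR GR-Con female, 6 were called, all lower. DR GR-Con female is a library with few microglia, and it also had few endothelial cells and VLMC. The quasi-likelihood test called 0 members (5 had an unadjusted p under 0.05) and DESeq2 called 1.

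Whether the genotype difference depended on rearing was tested directly as an interaction, the difference in NR minus that in DR. It was called for 0 of 9 members by the likelihood ratio test, the quasi-likelihood test and DESeq2 (0.386% of genes called by the first, and 3, 2 and 2 members at an unadjusted p under 0.05). The 3 members were Ezr (-0.66, SE 0.22, adjusted p = 0.254), Fam107a (-0.62, SE 0.29, adjusted p = 0.870) and Zbtb16 (-1.46, SE 0.69, adjusted p = 0.885). The larger number of calls in NR than in DR is thus not shown to be a difference between rearing conditions.

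With rearing as a term in a fit of all 8 libraries, 6 members were called lower in GR-KO astrocytes and 0 higher (4.8% of genes called, 2.91% lower and 1.9% higher). These were Fkbp5 (-2.32, SE 0.53, adjusted p = 5.68e-04), Cables1 (-1.0), Fam107a (-0.94), Nfkbia (-0.81), Ezr (-0.62) and Errfi1 (-0.57), and the quasi-likelihood test and DESeq2 each called 6. In Fam107a, Cables1, Ezr and Errfi1 all 4 GR-KO libraries were below all 4 GR-Con libraries, a separation in that direction seen in 3.85% of genes. Fkbp5 missed it by a narrow margin, as DR GR-Con male (21.5 CPM) was just under NR GR-KO male (21.9). Tsc22d3 (-0.93, adjusted p = 0.0829), Zbtb16 (-1.09, adjusted p = 0.122) and Sgk1 (-0.20, adjusted p = 0.820) were not called. The 3 genotype comparisons share libraries and are not independent of each other. In the 5 libraries with many microglia (2 GR-Con, 3 GR-KO), 8 members were called, now with Zbtb16 (-1.20) and Tsc22d3 (-1.29), where 6.19% of genes were.

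**Figure D3:**
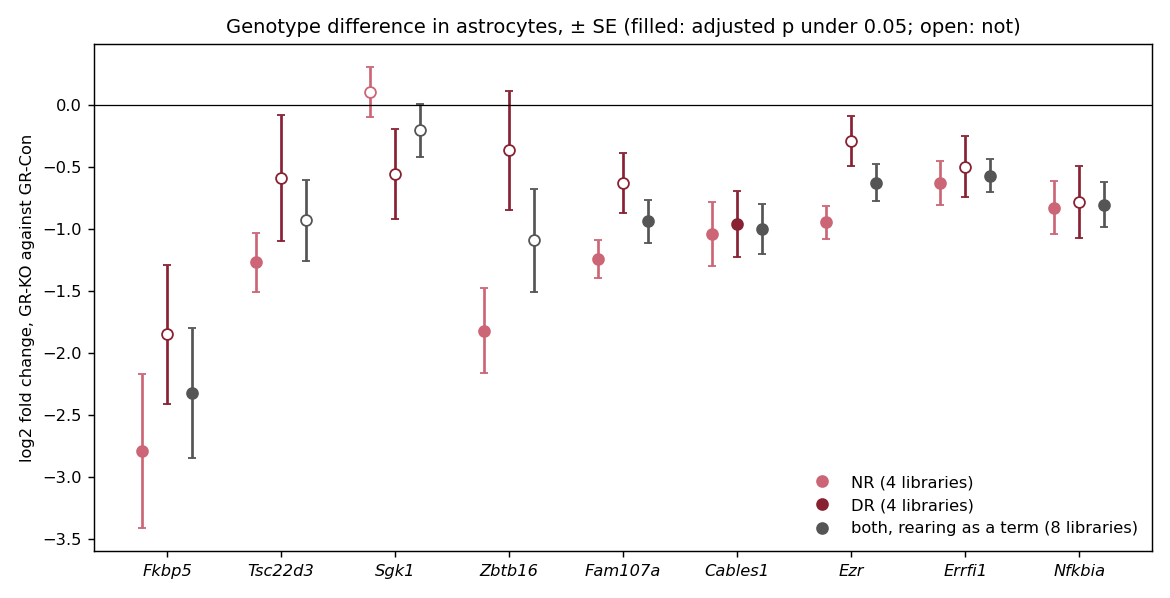
Log2 fold change of GR-KO against GR-Con in astrocytes (y axis) for the 9 genes in NR, in DR and over all 8 libraries, with bars for ± 1 SE and filled symbols for an adjusted p under 0.05. All values in DR are below 0, but only that of Cables1 is filled, and Sgk1 stays near 0 in NR.

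Astrocyte nuclei of NR GR-KO also had higher sums of neuronal, oligodendrocyte and OPC marker transcripts than those of NR GR-Con. The 5 pan-neuronal markers summed to 763 to 856 CPM in NR GR-Con and 1582 to 1664 in NR GR-KO, the 5 excitatory markers to 173 to 228 and 257 to 267, and the 4 inhibitory markers to 54.1 to 57.7 and 117 to 150.1. The 4 OPC markers (Pdgfra, Cspg4, Vcan and C1ql1) summed to 32.3 to 34.1 in NR GR-Con and 77.5 to 98.1 in NR GR-KO. The paper reports Vcan as induced in astrocytes themselves by GR-KO, and its part in the OPC sums was not separated. The 5 oligodendrocyte markers, of the type in which Tsc22d3 is highest, summed to 114 to 132 and 151 to 193. Lower without overlap in NR GR-KO were the 5 VLMC markers, of a type in which Fkbp5 and Errfi1 are high (12.5 to 14.0 against 8.29 to 12.1), and the 5 mural markers (119.7 to 127 against 106 to 112). The 5 microglia markers, of the type in which Fkbp5 and Cables1 have their highest means, summed to 32.1 to 37.3 in NR GR-Con and 37.3 to 41.7 in NR GR-KO, higher by a narrow margin. No marker was at 0 throughout. The 6 astrocyte markers summed to 13486 to 14263 in NR GR-Con and 11397 to 11712 in NR GR-KO. In DR the pan-neuronal sums overlapped (915 to 1214 in GR-Con, 1137 to 1154 in GR-KO), as did the excitatory and inhibitory ones, while the OPC sums (54.5 to 54.7 and 124 to 131) and the oligodendrocyte sums (71.0 to 93.6 and 98.7 to 105) again did not, nor did the VLMC sums (11.4 to 12.2 and 8.35 to 10.3) and the endothelial sums (4.08 to 5.27 and 2.75 to 3.34), lower in GR-KO and of the type in which Nfkbia is highest. The part of these transcripts in the members' differences was not tested.

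A comparison within each library was added after the data had been seen. The log2 CPM of astrocytes minus that of the excitatory neurons of the same library was lower in all 4 GR-KO than in all 4 GR-Con libraries for Fkbp5 (mean difference -2.33), Errfi1 (-0.70) and Nfkbia (-0.79). Against oligodendrocytes of the same library this was so for Fkbp5 (-1.96), Tsc22d3 (-0.88), Fam107a (-0.77) and Cables1 (-1.03). Each had p = 0.0286 in a two-sided exact permutation test, the smallest that 4 against 4 libraries allow, and an adjusted p of 0.0735 over the 18 comparisons. None of the 18 passed the adjustment, and Fkbp5 was the member with separate groups against both cell classes. The share of all genes with groups separate in this way was not computed.

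Nuclei of the same library could also be compared by whether they held vector transcripts. Between 65 and 140 astrocyte nuclei per library had at least 1 UMI of EGFP or of the Cre or ΔCre sequence and are called vector-positive. The methods of the study state that nuclei without GFP signal were collected, and the labels name only a DRAQ5 sort. Whether this sort, with a membrane-directed EGFP, changed the share of transduced astrocytes was not tested. In GR-KO libraries 4 of 9 members were called lower in vector-positive than in vector-negative astrocytes, where 3.94% of genes were called and 2.21% called lower. In GR-Con libraries, where the vector carries no active Cre, 0 of 9 were called by the likelihood ratio and the quasi-likelihood tests (1.21% of genes by the first), and Fkbp5 alone had an unadjusted p under 0.05 (log2 fold change 0.40, adjusted p = 0.0955, higher in vector-positive nuclei of 3 of 4 libraries).

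Fkbp5 stood at 5.49, 3.79, 0 and 7.23 CPM in vector-positive nuclei of NR GR-KO male and female and DR GR-KO male and female, and at 24.8, 5.06, 11.3 and 16.1 in the vector-negative nuclei (log2 fold change -1.78, SE 0.33, adjusted p = 6.20e-06). It was lower in 4 of 4 libraries, from 0 to 7 UMIs per library, and without NR GR-KO male it was not called (-1.37, adjusted p = 0.0740). Zbtb16 stood at 33.0, 32.6, 28.6 and 52.4 CPM against 66.5, 38.3, 81.5 and 117 (-0.96, SE 0.14, adjusted p = 4.80e-10), and the lower level was again found in every GR-KO library. It was also lower in vector-positive nuclei of 4 of 4 GR-Con libraries, by less and not called. In NR GR-Con male and female and DR GR-Con male and female these stood at 198, 91.2, 177 and 61.7 CPM against 230, 107, 179 and 65.3. Fam107a had means of 116 against 166 CPM (-0.52, adjusted p = 1.55e-06) and Ezr of 66.4 against 90.1 (-0.42, adjusted p = 0.00443), which was not called without DR GR-KO male (-0.31, adjusted p = 0.152). Cables1 (-0.25, adjusted p = 0.0767), Tsc22d3 (-0.33, adjusted p = 0.339), Nfkbia (-0.33, adjusted p = 0.553), Sgk1 (-0.30, adjusted p = 0.761) and Errfi1 (-0.06, adjusted p = 0.954) were not called. Cables1 and Tsc22d3 were still lower in vector-positive nuclei of 4 of 4 GR-KO libraries. The share of all genes lower in 4 of 4 libraries was not computed. Nr3c1 had means of 302 against 271 CPM and was higher in vector-positive nuclei of every GR-KO library (0.14, adjusted p = 0.377).

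Vector-negative GR-KO astrocytes were themselves low: Fkbp5 had a mean of 14.3 CPM there, against 65.2 in the vector-negative and 92.1 in the vector-positive astrocytes of GR-Con. The libraries behind the mean of 92.1 ranged from 12.5 CPM (DR GR-Con male) to 216 CPM (NR GR-Con male). Median UMIs per nucleus differed little between vector-positive and vector-negative nuclei of a library, for example 8608.5 and 8695 in NR GR-KO male. That a nucleus holds no vector UMI does not show that it was not transduced. The difference of the vector contrast between genotypes, a test added after the data had been seen, was called for Fkbp5 (-2.17, SE 0.35, adjusted p = 1.55e-06) and Zbtb16 (-0.82, SE 0.17, adjusted p = 0.00105), 2 of 9 members where 0.301% of genes were called. Fkbp5 was not called without NR GR-KO male, and Zbtb16 not without DR GR-KO male or with EGFP alone.

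**Figure D4:**
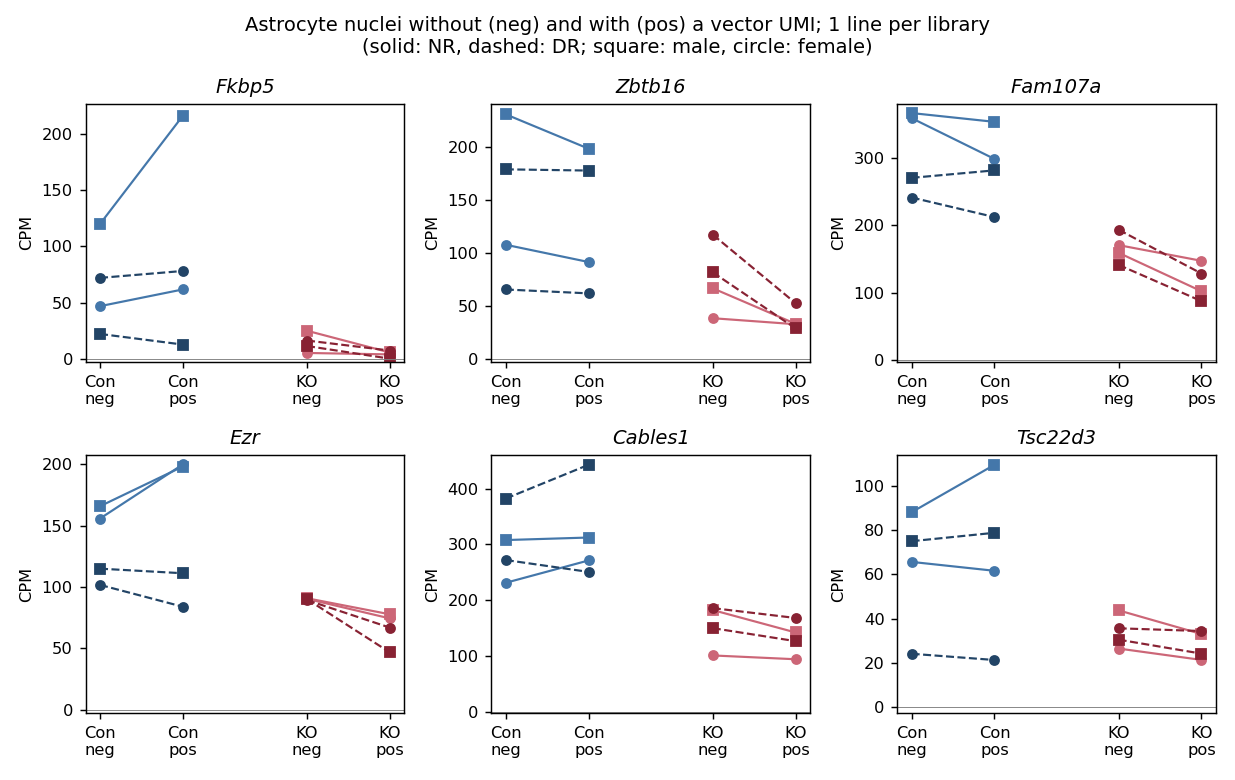
CPM (y axis, linear) of 6 members in astrocyte nuclei without and with a vector UMI, joined by 1 line per library, for GR-Con and GR-KO. In GR-KO the lines of Fkbp5, Zbtb16, Fam107a and Ezr fall in all 4 libraries, and in GR-Con Fkbp5 has a mean of 65.2 CPM without and 92.1 with a vector UMI.

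In astrocytes few members were called for dark rearing, and the number rested on single libraries. In GR-Con, 0 of 9 were called in DR against NR by any of the 3 tests (0.147% of genes by the likelihood ratio test, and 2 members at an unadjusted p under 0.05). The 2 were Ezr (log2 fold change -0.62, SE 0.21, adjusted p = 0.317) and Fam107a (-0.52, SE 0.21, adjusted p = 0.696). In both and in Errfi1, 3 of 9 members, the DR libraries were below the NR libraries, as in 15.9% of genes. Without DR GR-Con male 4 were called lower (Tsc22d3 -1.75, Zbtb16 -1.40, Ezr -0.76, Fam107a -0.64), and without DR GR-Con female 1 was (Fkbp5 -2.02). In GR-KO, 1 was called, where 2.85% of genes were and 0.642% were called higher. This was Zbtb16, at 61.4 and 37.6 CPM in NR GR-KO and 75.1 and 112 in DR GR-KO (1.01, SE 0.24, adjusted p = 0.00242), which the quasi-likelihood test also called (adjusted p = 0.043) and DESeq2 did not (0.285). With 1 library left out the number was 0 to 4 (0 without DR GR-KO female, 2 without NR GR-KO female and 4 without NR GR-KO male). Sgk1 was close to the threshold in the other direction, at 10.6 and 11.7 CPM in NR and 7.14 and 5.84 in DR (-0.72, SE 0.23, adjusted p = 0.0544). Over all 8 libraries 0 members were called by any of the 3 tests (0.917% of genes, and 1 member at an unadjusted p under 0.05), and without the libraries with few microglia 3 were (Zbtb16 1.09, Cables1 0.75, Sgk1 -0.64), where 3.55% of genes were. The NR libraries then left are all female while those of DR hold both sexes, so rearing and sex are partly confounded.

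Of a further list of 24 GR-responsive genes, most were also lower in NR astrocytes of GR-KO. This list, like the members, was chosen with earlier results of these data known, so its counts are not independent support. Of 23 tested, 14 were called lower in GR-KO and 0 higher, beside 3.37% and 3.73% of all genes (median log2 fold change -0.72), and Anxa1 was too low to test. Hif3a, a regulator of the response to hypoxia, stood at 334 and 272 CPM in NR GR-Con and 75.2 and 68.9 in NR GR-KO (-2.14, SE 0.16, adjusted p = 1.38e-35). Sult1a1, a sulfotransferase (-2.64), Plin4, a lipid droplet protein (-1.88), and Txnip, an inhibitor of thioredoxin (-1.57), fell as well. In DR, where 0.736% of all genes were called, 2 were called lower, Hif3a (-1.70) and the transcriptional repressor Bcl6 (-0.92), and 1 higher, Pdk4 (1.03), a kinase that switches cells from glucose to fat oxidation. DESeq2 called Hif3a and Bcl6 and not Pdk4 (adjusted p = 0.0965), and the quasi-likelihood test called 0 of the list in DR (Hif3a 0.0523, Bcl6 0.287, Pdk4 0.329), where 12 had an unadjusted p under 0.05 in the likelihood ratio test. Pdk4 was the one gene of the list called higher over all 8 libraries (0.74, adjusted p = 0.00111), beside 12 lower (2.91% of all genes). In GR-KO astrocytes of DR against NR animals the metallothioneins Mt1 (-0.70) and Mt2 (-0.67) were called lower, 2 of 22 tested, where 2.85% of all genes were called. Mt2 was not called by the quasi-likelihood test (adjusted p = 0.0579) or DESeq2 (0.128). None of the 10 genes of the receptor and its machinery, among them Nr3c1, the related receptor Nr3c2, the chaperones and co-regulators, was called for genotype in NR, in DR or over all 8 libraries by the likelihood ratio test, the quasi-likelihood test or DESeq2 (1, 0 and 3 at an unadjusted p under 0.05 by the first). The chaperone gene Hsp90aa1 was called lower in DR than in NR over all 8 libraries (-0.55, adjusted p = 0.0180) and by DESeq2, and not by the quasi-likelihood test (adjusted p = 0.155).

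Outside astrocytes few members were called for genotype, and the number rested on single libraries. In NR, 3 of 125 pairs of a member and a cell type were called (16 cell types, 0.37% of all gene and type pairs), all lower in GR-KO: Fam107a in L5PT and Pvalb neurons and Ezr in Pvalb neurons. They were near the limit of detection: Fam107a in L5PT neurons stood at 2.30 and 2.11 CPM in NR GR-Con and 0.567 and 0.370 in NR GR-KO, in neurons that share their libraries with astrocytes at 355 to 365 and 150.4 to 168 CPM. Fam107a was below 0 in 10 of 11 types tested and Ezr in 8 of 9, and transfer of free astrocyte RNA into neuronal droplets was not tested. The quasi-likelihood test and DESeq2 called 0 of these pairs (11 and 5 at an unadjusted p under 0.05). Fkbp5, which neurons express at 17.8 to 86.7 CPM, ranged from -0.69 to 0.30 over the 16 types with 0 called. In DR, 2 of 106 pairs were called (0.496% of pairs), Zbtb16 in OPC (0.87, adjusted p = 0.00673) and Cables1 in Lamp5 interneurons (0.81, adjusted p = 0.0451), both higher in GR-KO, and neither was called by the quasi-likelihood test or DESeq2. With 1 library left out the number was 0 to 8 in NR (0 without NR GR-Con male) and 0 to 17 in DR, where without DR GR-Con female 17 of 104 pairs were called, all higher in GR-KO. Over all 8 libraries 1 of 112 pairs was called (0.0739%), Fam107a in Pvalb neurons (-1.26). Without the libraries with few microglia 0 of 105 were (0.247% of pairs, and 9 at an unadjusted p under 0.05). The interaction was called in 0 of 114 by any of the 3 tests (0.166% by the likelihood ratio test, and 13 at an unadjusted p under 0.05).

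Most calls for rearing in GR-KO animals outside astrocytes were of Fkbp5 and Zbtb16. In GR-KO, 11 of 121 pairs were called in DR against NR, 10 of them higher, where 3.71% of pairs were called. This number moved widely with 1 library left out. Fkbp5 stood at 34.6 and 20.3 CPM (male and female) in L2/3 excitatory neurons of NR GR-KO and at 82.9 and 61.3 in DR GR-KO (1.44, SE 0.30, adjusted p = 1.06e-04), and the call held with each library left out. In L4 neurons it went from 13.1 and 11.9 to 24.5 and 22.1 CPM (0.97, SE 0.15, adjusted p = 1.61e-07) and in VLMC from 208 and 146 to 514 and 544 CPM (1.35, adjusted p = 4.58e-04). Zbtb16 was called higher in L2/3 (0.66) and L4 (0.86) neurons, Lamp5 interneurons (0.73), OPC (0.94) and VLMC (1.10). None of these Zbtb16 calls held with each library left out. The quasi-likelihood test called 4 of the 11 pairs, Fkbp5 in L4 and VLMC, Sgk1 in L4 and Zbtb16 in OPC. It did not call Fkbp5 in L2/3 neurons (adjusted p = 0.0605). DESeq2 called 6 of the 11. In OPC Zbtb16 stood at 136 and 56.0 CPM in NR GR-KO and 143 and 218 in DR GR-KO.

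The log2 fold changes of Fkbp5 and Zbtb16 were above 0 in 17 of 17 types outside astrocytes, with medians of 0.48 and 0.64, and the types share their libraries. The share of all genes above 0 in every type was not computed. Median UMIs per nucleus (male and female) were 22827.5 and 29223 in NR GR-KO and 14928.5 and 14861 in DR GR-KO. The part of depth in these differences was not tested. In astrocytes of the same animals Fkbp5 was at 0.02 (SE 0.49), a value that went to -0.68 without NR GR-KO female and to 1.44 without NR GR-KO male, both called. Sgk1 rose in L4 neurons (0.50, adjusted p = 0.00553), Cables1 rose (0.57) and Errfi1 fell (-0.91) in Lamp5 interneurons, and the other members gave no call. In GR-Con, 3 of 113 pairs were called, a share close to the 2.4% of all pairs: Fkbp5 was higher in Vip interneurons (0.56, adjusted p = 0.0268), and Tsc22d3 in L5PT and Ezr in Pvalb neurons were lower at 0.927 to 3.63 CPM. The quasi-likelihood test and DESeq2 called none of these (18 and 6 pairs at an unadjusted p under 0.05). Fkbp5 in L2/3 neurons of GR-Con was at 50.3 and 23.9 CPM in NR and at 24.3 and 85.5 in DR, and the library at 85.5 was DR GR-Con female, 1 of those with few microglia. The calls in GR-KO cover 17 cell types and those in GR-Con 14, VLMC not among them. In the 14 types the interaction tests whether the rearing difference depends on genotype and called 0 pairs, and in the other 3 types that difference was not tested.

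Over all 8 libraries, 11 of 112 pairs were called in DR against NR, where 5.72% of pairs were, 3 higher and 8 lower. Sgk1 was called in both directions: it was higher in L4 (98.0 to 113 CPM in the 4 NR libraries and 117 to 159 in the 4 DR libraries, 0.41, adjusted p = 0.00467) and lower in L5IT (-0.41), L6CT (162 to 185 in NR and 127 to 150.1 in DR, -0.30, adjusted p = 0.0101) and L6IT (-0.46) neurons. In L4 and in L6CT the NR and DR libraries did not overlap, and the share of all genes without overlap in these types was not computed. Errfi1 was lower in Lamp5 interneurons, at 68.6 to 82.3 CPM in NR and 26.1 to 60.6 in DR (-0.66, adjusted p = 0.00347). Zbtb16 in Lamp5 (0.48) and Fkbp5 in Vip (0.43) interneurons were higher, and Tsc22d3 in L2/3 and L4, Fam107a in L2/3 and Nfkbia in L5IT neurons were lower at 0.548 to 3.58 CPM. The quasi-likelihood test called 5 of these comparisons and DESeq2 7. Without the libraries with few microglia 11 of 105 pairs were called (5.21% of pairs), 6 of them among the 11 above. The NR libraries left in that fit are all female, so rearing and sex are partly confounded in it. Sgk1 in L4 (0.29, adjusted p = 0.213) and L6CT neurons (-0.25, adjusted p = 0.175) kept its direction and was then not called. In L5IT (-0.51) and L6IT (-0.65) neurons Sgk1 stayed called lower. Zbtb16 in OPC (1.13, adjusted p = 1.80e-06), L6b (1.05) and Vip (0.51) cells and Fkbp5 in OPC (0.67) and L5IT neurons (0.70) were called higher.

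**Figure D5:**
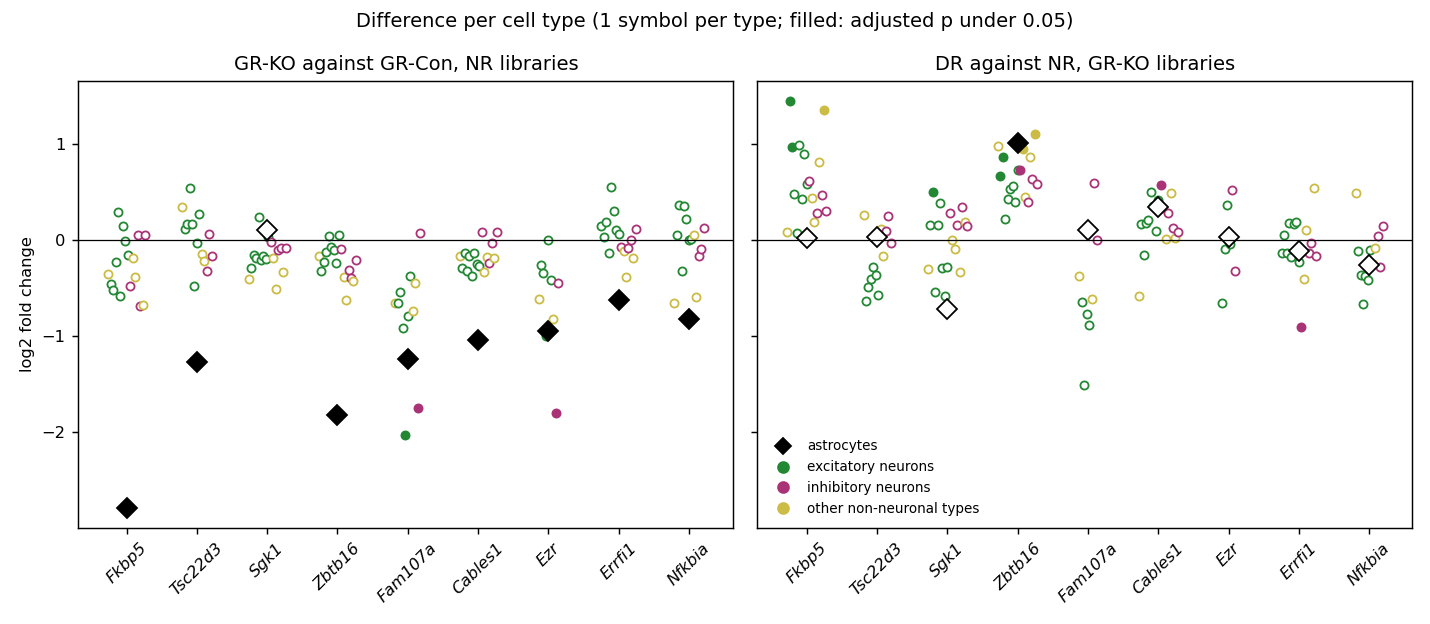
Log2 fold change (y axis) of each member in every cell type tested, for GR-KO relative to GR-Con under NR (left) and DR against NR in GR-KO (right), with diamonds for astrocytes, circles for other types and filled symbols for an adjusted p under 0.05. On the left astrocytes lie below all other types for Fkbp5, Tsc22d3, Zbtb16, Cables1, Errfi1 and Nfkbia, and on the right all symbols of Fkbp5 and Zbtb16 are above 0.

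Levels were also compared between the 3 libraries with few microglia and the other 5. Of 45 pairs of a member and a cell class (astrocytes, excitatory neurons, inhibitory neurons, oligodendrocytes and OPC), 5 did not overlap between these sets, as did not 4.04% of pairs over all genes detected in every library. Fkbp5 in oligodendrocytes was at 125 to 172 CPM in the 3 libraries with few microglia and at 47.4 to 104 in the other 5. Nfkbia in oligodendrocytes (7.81 to 10.3 against 3.33 to 7.62 CPM), OPC (7.19 to 11.1 against 4.91 to 6.24) and excitatory neurons (2.26 to 2.97 against 2.02 to 2.26) did not overlap between these libraries either, nor did Ezr in excitatory neurons. In astrocytes all 9 members overlapped between them. Between astrocytes and excitatory neurons, and between endothelial cells and excitatory neurons, the relation of each member's log2(CPM + 1) over libraries was tested, 18 relations in all. By Pearson's r the strongest were Zbtb16 (Pearson's r = 0.84, Spearman's rho = 0.82, exact permutation p = 0.0232 and 0.0341) and Fkbp5 (r = 0.77, rho = 0.71, exact permutation p = 0.0472 and 0.0881) between endothelial cells and excitatory neurons over 7 libraries. Adjusted p-values were 0.328 and 0.412 for Zbtb16 and 0.328 and 0.500 for Fkbp5, so neither relation passed the adjustment. By Spearman's rho Fam107a between astrocytes and excitatory neurons was above Fkbp5 (rho = 0.74, exact permutation p = 0.0458, adjusted p = 0.412, r = 0.70), and r was 0.35 without the 2 libraries farthest from the median and -0.13 on deviations from the group means. For Zbtb16 and Fkbp5 r was 0.56 and 0.24 over the 5 libraries left in the same way. On deviations from the group means, which rest on only 3 groups with 2 libraries, r of the 9 members between endothelial cells and excitatory neurons ran from -0.94 (Sgk1) to 0.96 (Zbtb16), with Fkbp5 at 0.94.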

How the data were processed

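The authors sorted nuclei from flash-frozen V1, made libraries with the 10x 3′ kit (v4) and counted UMIs with Cell Ranger 8.0.1 against mm10 with added vector sequences. In Seurat 5.3.0 they removed nuclei with extreme gene counts, predicted doublets and clusters without markers. The matrix deposited by the authors holds raw UMI counts per gene and nucleus, and a second deposited table lists for each nucleus its library, cell type and percent of mitochondrial UMIs. Here UMIs were summed per library and cell type where every library of a fit had at least 10 nuclei, and the sums entered edgeR 4.0.16 under R 4.3.3 (filterByExpr, TMM, glmFit, two-sided glmLRT), the test that the study used. Benjamini-Hochberg adjustment ran over all genes tested in a cell type, and an adjusted p under 0.05 is a call. The edgeR quasi-likelihood F-test and DESeq2 1.42.0 were alternatives, and the fits were tested on simulated counts: they recovered the fold changes put in, and in most comparisons each of the 3 tests made more false calls than its threshold names, the likelihood ratio test in all of them. With 2 animals per group, 1 of each sex, p-values rest on the spread between these few animals. Library names give group and sex but no replicate number. Counting error sets the precision of low levels, and doublets were not sought again. Named genes are the 9 members, Nr3c1, up to 4 called genes per direction of the 24 other GR-responsive genes, and called genes of the 10 machinery genes. For likeness they are the 3 genes (5 over libraries for Fkbp5) with the highest Pearson's r among genes reaching 10 CPM. The members and lists were chosen with earlier results of these data known.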

Additional observations from a re-analysis of the deposited data

Results flagged for a closer look

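A difference between the genotypes in the vector contrast flagged 2 members in astrocytes. The vector-positive minus vector-negative difference in GR-KO less that in GR-Con was -2.17 (log2, SE 0.35, adjusted p = 1.55e-06, edgeR) for Fkbp5 and -0.82 (SE 0.17, adjusted p = 0.00105) for Zbtb16. Both were lower in vector-positive nuclei of 4 of 4 GR-KO libraries, and Zbtb16 was so in 4 of 4 GR-Con libraries too. The quasi-likelihood test called both. With positive nuclei defined by EGFP alone Fkbp5 was called (-2.00) and Zbtb16 was not. Without NR GR-KO male Fkbp5 was not called, and without DR GR-KO male Zbtb16 was not. Fkbp5 counts in vector-positive GR-KO nuclei were 0 to 7 UMIs per library, so that its fold change rests on few molecules.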

How the results depend on the processing

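No paired analysis was possible because the library names carry the sex and not the replicate number of the labels; sex as a term was the nearest fit. Members called in astrocytes moved as follows. For genotype in NR (8), DESeq2 gave 5 and leaving out 1 library 5 to 8. For genotype in DR (1), the quasi-likelihood test and no filter on low counts gave 0, sex as a term 2 and leaving out 1 library 0 to 8, with Tsc22d3 (0.52) and Zbtb16 (0.59) reversed without DR GR-Con male and at -1.20 and -0.92 without DR GR-Con female. For DR against NR in GR-KO (1), DESeq2 gave 0, sex as a term 2 and leaving out 1 library 0 to 4, with Fkbp5 reversed (-0.68) without NR GR-KO female and at 1.44 without NR GR-KO male. Leaving out 1 library gave 0 to 4 for DR against NR in GR-Con (0) and for the interaction (0), the 4 calls in both without DR GR-Con male. It gave 6 to 8 for genotype over all libraries (6), and 0 to 1 for rearing over all libraries (0). That last count was 3 without the libraries with few microglia, an alternative chosen after seeing the data, as was its use outside astrocytes, where genotype over all libraries (1) gave 0. The vector contrast gave 3 to 4 in GR-KO (4), 0 to 1 in GR-Con (0) and 1 to 3 for their difference (2, or 1 with EGFP only). Fam107a and Ezr were the members highest in astrocytes in every setting (2 to 2 members). Outside astrocytes, pairs called for genotype in NR (3) were 0 by the quasi-likelihood test and DESeq2, 6 with sex as a term and 0 to 8 with 1 library left out (0 without NR GR-Con male). For genotype in DR (2) they were 0, 0, 8 and 0 to 17, and 0 without the filter; 17 were called without DR GR-Con female. For DR against NR they were 0, 0 and 0 to 8 in GR-Con (3), and 4, 6, 20 with sex and 4 to 31 in GR-KO (11), 31 without NR GR-KO male. Over all libraries genotype (1) gave 0, 0 and 0 to 2, rearing (11) gave 5, 7, 7 without the filter and 5 to 10, and the interaction (0) gave 0 to 4. Leaving out a library of a group of 2 assumes that the lone one varies like the others. The cause of these shifts was not tested. Tsc22d3, Nfkbia, Fam107a and Ezr lie at a few CPM in many types, where depth limits any call.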

Other observations

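The genes whose levels ran most like those of a member over the 20 cell types, by Pearson's r of log2(mean CPM + 1) in the GR-Con libraries among 13761 genes, are given as a description without a test. For Ezr they were Prdm16 (r = 0.98), Gstm1 (0.97) and Acsbg1 (0.97), and for Fam107a Cyp4f15, Acsbg1 and Grin2c (each 0.95). Those of Nfkbia were Slc16a9 (0.95), Id1 (0.94) and Gbp3 (0.94), and those of Tsc22d3 were Sfr1 (0.94), Ttc12 (0.93) and Tlk2 (0.93). For Cables1 the closest was Gm6277 (0.90), whose gene overlaps Cables1 on the other strand, followed by Chsy1 (0.84) and Gnaq (0.83). Errfi1 (Rbsn 0.85, Slc25a17 0.82, Bag4 0.81), Fkbp5 (Gm4890 0.84, Cyp27a1 0.84, Knop1 0.83), Zbtb16 (Erc1 0.81, Fam171a1 0.78, Klf8 0.77) and Sgk1 (Mgat5b 0.74, Zdhhc2 0.72, Csmd3 0.71) had lower values.

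Over the 8 astrocyte libraries the closest of 9005 genes to Fkbp5 were Helb and Otud7b (r = 0.98 each), Mboat2 (0.97), Kirrel3 (0.96) and Acap2 (0.96). Among the members other than Sgk1, which did not reach a mean of 10 CPM in astrocytes, r was also taken over these libraries. It ran highest for Errfi1 with Nfkbia (0.96), Fam107a with Ezr (0.94), Fkbp5 with Nfkbia (0.92), Fkbp5 with Errfi1 (0.88) and Tsc22d3 with Zbtb16 (0.86). These libraries are split into 2 genotypes, between which 6 members were called over all 8, and the points also share depth. The part of either in these values was not tested.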
